A study of Homo sapiens with 9 samples.

Results

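Ribosome biogenesis factors are the proteins that transcribe, fold, cut and modify the precursor of ribosomal RNA and assemble it with ribosomal proteins. The 42 genes described here were chosen by function, at a time when earlier results of these data were known. They were matched by Ensembl gene ID among the 60308 gene IDs counted. They comprise 4 genes of the UTP-A complex, 6 of the UTP-B complex, 3 of the MPP10 complex, 12 other factors of the small subunit, 11 of the large subunit, 4 of RNA polymerase I or its factors, and 2 other nucleolar proteins. Counts were high enough for testing in 41 of the 42. PWP2, a UTP-B subunit, had 1 to 7 reads per library and was not tested.

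Total RNA was sequenced from MCF10A cells, an immortalised human breast epithelial line, in 3 groups of 3 biological replicates. All cultures carried ectopic MYC from pBABE-hygro-MYC and the kinase mutant PI3KH1047R from pMN-IRES-GFP-PI3KH1047R, and all received 2 μg/mL doxycycline for 72 hours, which switches on the hairpin. The groups were shG9a_1 and shG9a_4, each expressing a hairpin that targets EHMT2, which encodes G9a, an enzyme that methylates histone H3, and shSCR with a scrambled hairpin. Since the shSCR cells carry MYC, mutant PI3K and doxycycline too, the comparison is of EHMT2 knockdown within MYC-transformed cells, and no culture without MYC was analysed here. The labels do not say whether a line is a pool or a clone.

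Ribosome production begins in the nucleolus, where RNA polymerase I copies the ribosomal DNA with the help of UBTF and the initiation factor RRN3. The UTP-A, UTP-B and MPP10 complexes then load onto the nascent transcript and build the small subunit processome, while a separate set of factors matures the large subunit. Many of these genes are textbook targets of MYC, which binds the E-box CACGTG as a dimer with MAX, and their output is tied to cell growth in epithelial tumours. The series asks how MYC and G9a act together in transcriptional repression, so the question here was whether this MYC-linked growth programme differed after EHMT2 knockdown.

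EHMT2 had 17.6, 22.6 and 21.03 CPM (read counts scaled by library size) in shG9a_1, 32.1, 27.2 and 33.5 CPM in shG9a_4, and 51.1, 45.2 and 45.4 CPM in shSCR. Both hairpin groups lay below every shSCR library. The log2 fold change of EHMT2 was −1.21 (edgeR adjusted p = 0.00766) in shG9a_1. In shG9a_4 it was −0.61 (edgeR adjusted p = 0.2585), so that EHMT2 itself was not called there. Reads in genes ranged from 53065611 to 76958831 per library, and 26759 to 28346 genes were detected. All 12 markers of basal breast epithelium averaged at least 1 CPM, and their summed level was 5913 to 7791 CPM in shG9a_1, 4820 to 7047 CPM in shG9a_4 and 4831 to 6754 CPM in shSCR. The 6 immune markers summed to at most 0.293 CPM in any library and the 4 endothelial markers to at most 2.99 CPM. Summed fibroblast markers, 4 of 8 above 1 CPM, reached 226 to 450.4 CPM in shG9a_1, 163 to 452 CPM in shG9a_4 and 180.3 to 363 CPM in shSCR. Most of this sum was DCN, at 135 to 413 CPM, while COL1A2, COL3A1, PDGFRA and PDGFRB stayed below 1 CPM. The luminal markers summed to 427 to 590 CPM in shG9a_1, 400 to 516 CPM in shG9a_4 and 398 to 476 CPM in shSCR. Nearly all of that was KRT8 and KRT18, while KRT19 had at most 0.165 CPM, ESR1 at most 0.398 CPM, and PGR was below 0.1 CPM throughout. The part of such cell states in the members' values was not tested. Replicate 2 of shG9a_4 stood apart from the other libraries by base composition. The members' count below 0 and median in shG9a_4 are given with and without it.

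The promoters of the members were examined for the MYC motif, since the cells carry ectopic MYC. RefSeq promoter windows (GRCh38.p14, 300 bases, of which 250 lie before the start and 50 from the start on) were matched for 36 of the 42 members, in 42 windows. Letters were searched on both strands. CACGTG was found in 31.0% of the member windows (13 of 42), belonging to 12 genes, against 7.26% of all 35116 windows. The related letters CACGCG were found in 38.1% of the member windows (16 of 42) against 11.4% of all windows. CCGGAAG, letters bound by ETS factors, was found in 40.5% (17 of 42) against 10.3%. These shares describe the letters in the windows and are no measure of binding. The 35116 windows were not matched to those of the members by level or base composition, and the part of these in the shares was not tested. CACGTG and CACGCG share their first 4 letters, but no stretch matches both at the same place, and CCGGAAG overlaps neither.

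The whole windows are shown for the 3 members with the lowest log2 fold change in shG9a_1, each read 5′ to 3′ on the gene's strand with the searched letters in capitals. DDX10 (chr11:108664819-108665118, plus strand) holds CACGCG on the opposite strand, POLR1C (chr6:43516839-43517138, plus strand) holds CACGCG once and CCGGAAG on both strands, and LYAR (chr4:4289972-4290271, minus strand) holds CACGTG 64 bases before the start.
DDX10: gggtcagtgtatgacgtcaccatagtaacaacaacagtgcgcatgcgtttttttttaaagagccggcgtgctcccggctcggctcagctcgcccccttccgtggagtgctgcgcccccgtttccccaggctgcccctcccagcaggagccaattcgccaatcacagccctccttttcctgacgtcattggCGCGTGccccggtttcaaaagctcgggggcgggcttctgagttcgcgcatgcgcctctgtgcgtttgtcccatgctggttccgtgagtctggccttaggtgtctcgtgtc
POLR1C: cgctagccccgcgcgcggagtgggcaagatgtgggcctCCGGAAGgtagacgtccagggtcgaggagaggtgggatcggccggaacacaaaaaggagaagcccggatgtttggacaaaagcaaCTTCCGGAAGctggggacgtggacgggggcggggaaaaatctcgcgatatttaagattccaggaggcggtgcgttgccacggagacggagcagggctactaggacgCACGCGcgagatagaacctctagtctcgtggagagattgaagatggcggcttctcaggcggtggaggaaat
LYAR: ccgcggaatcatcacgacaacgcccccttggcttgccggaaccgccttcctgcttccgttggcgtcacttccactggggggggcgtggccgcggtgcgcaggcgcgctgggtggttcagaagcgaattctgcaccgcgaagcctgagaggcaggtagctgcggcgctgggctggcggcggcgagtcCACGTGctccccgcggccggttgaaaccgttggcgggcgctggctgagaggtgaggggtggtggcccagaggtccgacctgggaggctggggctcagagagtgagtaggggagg
Shorter stretches show the E-box, in capitals with 12 bases on each side, in 5 members shown as examples. They are NOP14 (chr4:2963374-2963403, minus strand), NOL6 (chr9:33473894-33473923, minus strand), DDX21 (chr10:68956604-68956633, plus strand), NAT10 (chr11:34105602-34105631, plus strand) and UTP20 (chr12:101280083-101280112, plus strand).
NOP14: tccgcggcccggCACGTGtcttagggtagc
NOL6: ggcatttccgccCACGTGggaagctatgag
DDX21: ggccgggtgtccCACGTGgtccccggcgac
NAT10: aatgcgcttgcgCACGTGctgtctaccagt
UTP20: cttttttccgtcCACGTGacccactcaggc
The other members with the E-box were EBNA1BP2, IMP4, PWP2, UTP14A, UTP18 and UTP4, of which IMP4, PWP2, UTP18 and UTP4 had one no more than 16 bases from the start. For both hairpins against shSCR, the median log2 fold change was −0.07 over the 11 tested members with CACGTG and −0.06 over the 24 tested members whose windows lacked it. No test was made of these medians.

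The members were abundant and their levels varied little. The median of their mean levels was 124.5 CPM over the 9 libraries, against 9.46 CPM over all 18435 genes tested, and 27 members were above 100 CPM. The coefficient of variation over the 9 libraries had a median of 5.95% for the members and 13.2% for all genes tested, which also include many low-count genes. In 24 of the 41 members the highest library was less than 1.2 times the lowest.

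Per kilobase of annotated exon, DDX21, a nucleolar RNA helicase, stood alone at the top with 217 ± 9.27 CPM per kb (SD, n = 9 libraries). HEATR1 of UTP-A followed with 70.4 ± 3.22, and TSR1, a late small subunit factor, with 56.5 ± 3.22 CPM per kb. At the low end were POLR1C, the subunit shared by RNA polymerases I and III, with 9.62 ± 0.70, UTP4 of UTP-A with 6.44 ± 0.386, and TBL3 of UTP-B with 3.41 ± 0.634 CPM per kb. PWP2 was counted at 0.00676 CPM per kb, but reads that map to more than 1 place are not in these counts, and whether PWP2 shares reads with a near-identical copy was not tested, so its value is uncertain. Of the 41 neighbouring pairs in this order, 35 had overlapping ranges, so most neighbours were not separated beyond their spread. TBL3 belongs to UTP-B, in which UTP18 had 37.8, WDR3 27.6, WDR36 23.5 and UTP6 18.5 CPM per kb.

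**Figure D1:**
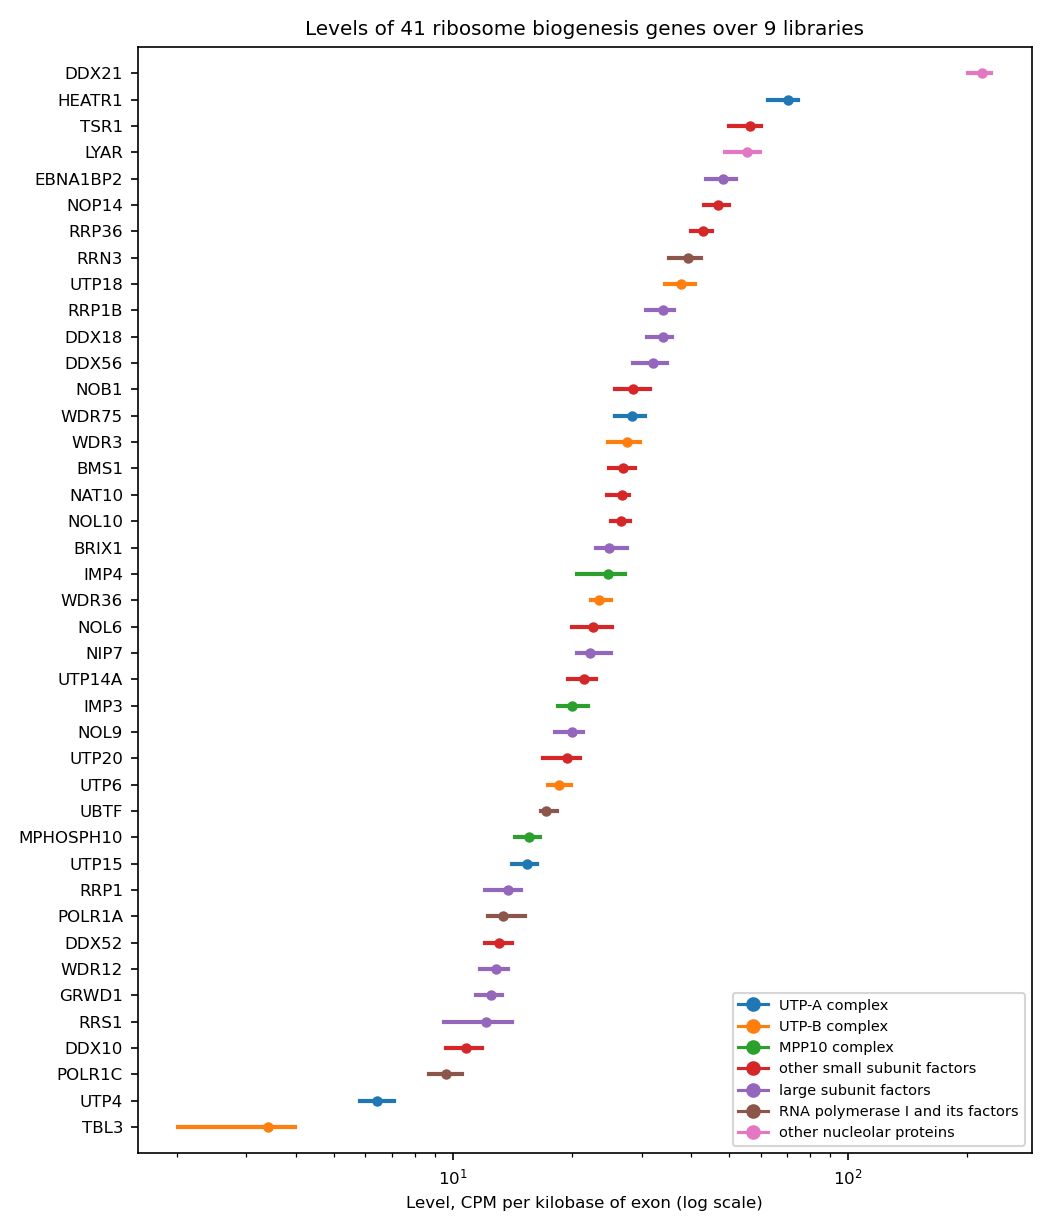
Level of each of the 41 tested members in CPM per kilobase of exon on a log scale, with the mean as a point and the lowest to highest of the 9 libraries as a line, coloured by role. DDX21 lies apart at 217 CPM per kb, most others lie between 10.8 and 70.4, and TBL3 has the widest line.

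In the fit of groups only, no member passed the threshold of 0.05 on the adjusted p in any hairpin comparison, and a fit with a GC offset and the replicate block, added after the data had been seen, called DDX10 and POLR1C in shG9a_1. In shG9a_1 against shSCR 0 of 41 members were called by edgeR, against 0.0380% of all genes tested (7 of 18435), and DESeq2 called 0 members as well. In shG9a_4 against shSCR, where EHMT2 itself was not called either, the count was 0 of 41 against 0.0271% (5 genes). For both hairpins against shSCR it was 0 of 41 against 0.0488% (9 genes). Between the hairpins, shG9a_1 against shG9a_4, it was 0 of 41, and 0% of all genes were called. At an unadjusted p under 0.05 there were 6 members in shG9a_1 (7.50% of all genes), 0 in shG9a_4 (2.38%), 3 for both hairpins (4.74%) and 0 between the hairpins (4.09%). These counts moved when single libraries were left out, and the matching shares of all genes were not counted. The 6 in shG9a_1 became 0 without replicate 2 or 3 of shG9a_1 or replicate 2 of shSCR, and 2 without replicate 1 or 3 of shSCR. They became 7 without replicate 1 of shG9a_1, and 4, 5 and 6 without replicates 1, 2 and 3 of shG9a_4. The 3 for both hairpins became 0 without replicate 2 or 3 of shG9a_1 or replicate 1 or 2 of shSCR. They became 1 without replicate 3 of shG9a_4, 2 without replicate 2 of shG9a_4, and 5 without replicate 1 of shG9a_1 or of shG9a_4. With library size alone as the scaling, 10 members had an unadjusted p under 0.05 in shG9a_1, and 0 were called. The median log2 fold change over all genes was then −0.02, and the matching share of all genes was not counted. With the replicate number as a block the share of all genes called grew to 0.776% in shG9a_1, 0.0759% in shG9a_4 and 0.184% for both hairpins, and still 0 members were called. The lowest edgeR adjusted p of a member with that block was 0.1459 in shG9a_1. It belonged to DDX10, whose SE was 0.06 with the block and 0.08 without it.

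The differences were small and lay mostly on the low side. Log2 fold changes were below 0 in 35 of 41 members in shG9a_1 and in 37 of 41 in shG9a_4, against 49.8% and 49.2% of all genes tested. The medians over the members were −0.08 in shG9a_1 and −0.05 in shG9a_4, with medians over all genes of 0.00. The SD between replicates of the members' median was 0.054 on the log2 scale. By library, the members' median deviation from the mean of the 9 was 0.02, −0.11 and −0.05 in shG9a_1. It was 0.04, 0.02 and −0.07 in shG9a_4, and 0.04, 0.08 and 0.02 in shSCR. The members moved together within a library, so they are not 41 separate observations. The comparisons share the shSCR libraries, so the counts are not independent of each other, and in a bulk culture fewer cells with a programme and less RNA per cell cannot be told apart. Without replicate 2 of shG9a_4 the count in shG9a_4 was 32 of 41 and the median −0.06, with 0 members called. Without replicate 3 of shG9a_4 the count in shG9a_4 was 26 of 41 and the median −0.02. Without replicate 2 of shG9a_1 the median in shG9a_1 was −0.04, still with 35 of 41 members below 0.

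The 95% intervals of the fit of groups only, which leaves out the replicate number, set how large a difference that fit leaves room for. In shG9a_1 the fitted folds ran from 0.874 to 1.06 and the interval lay within 1.2-fold in either direction for 28 of 41 members. In shG9a_4 the folds ran from 0.906 to 1.04, with 36 of 41 intervals within 1.2-fold. The widest interval belonged to TBL3, from 0.722 to 1.39 in shG9a_1. The median SE of a member's log2 fold change was 0.07 in each hairpin comparison with shSCR.

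**Figure D2:**
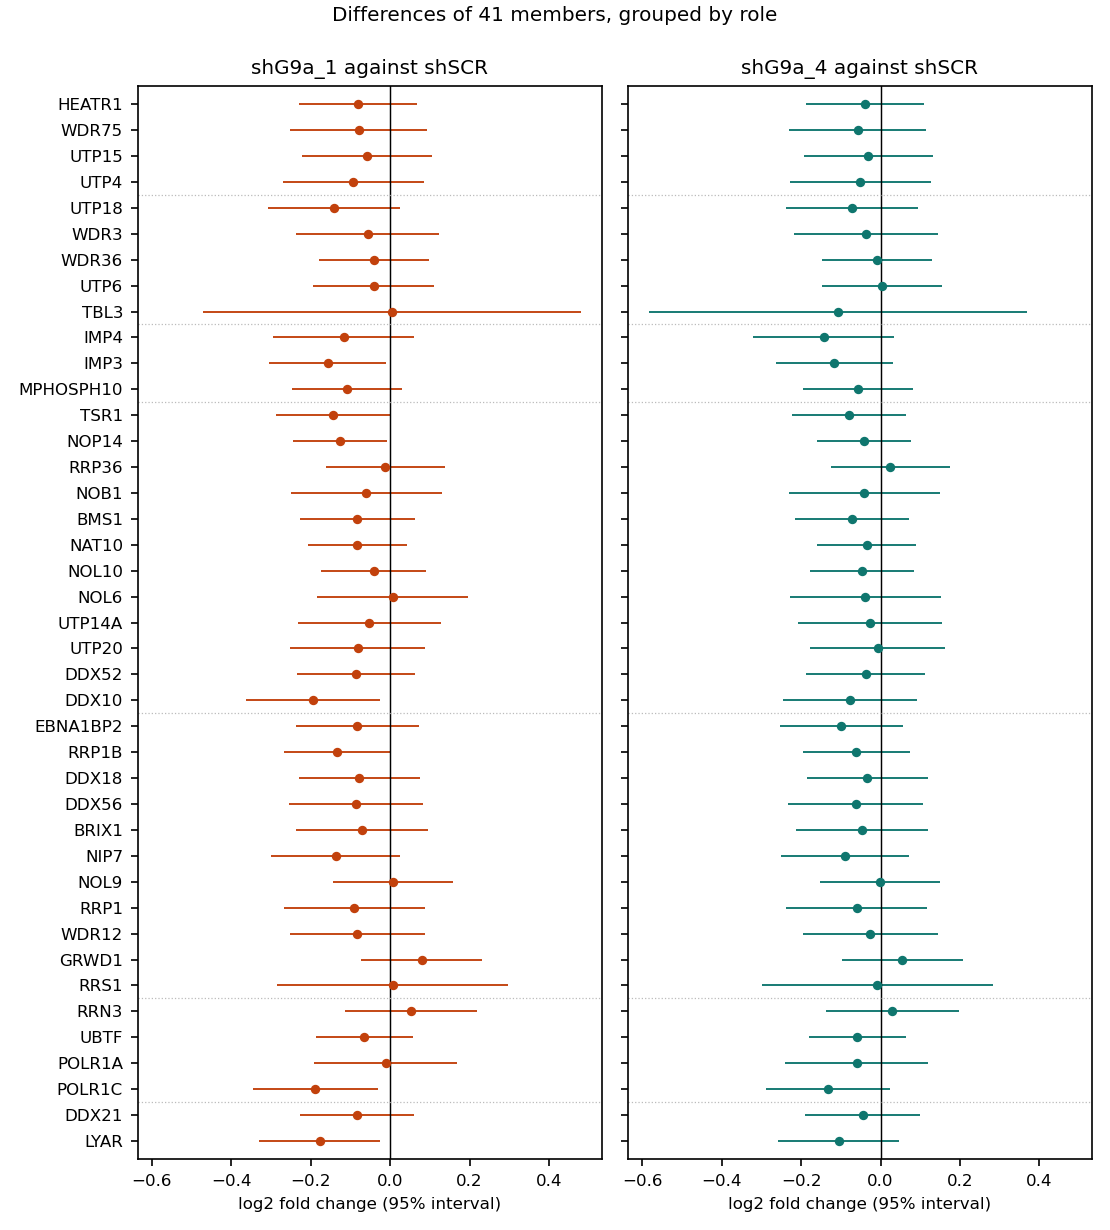
Log2 fold change with its 95% interval for the 41 tested members in shG9a_1 (left) and shG9a_4 (right) against shSCR, grouped by role with dotted lines. Most points lie below 0, 6 intervals in shG9a_1 and 0 in shG9a_4 lie wholly below 0, and TBL3 has the widest interval.

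Among RNA polymerase I and its factors, POLR1C had 54.5, 48.3 and 48.4 CPM in shG9a_1, 53.8, 54.1 and 49.2 CPM in shG9a_4, and 57.0, 58.7 and 56.5 CPM in shSCR. Every knockdown library was below every shSCR library. Its log2 fold change was −0.19 (SE 0.07, edgeR adjusted p = 0.6195) in shG9a_1 and −0.13 (SE 0.07, adjusted p = 0.9999) in shG9a_4. On average 3.76% of the reads at POLR1C were on the opposite strand. POLR1A, the largest subunit of the polymerase, had 175, 166 and 206 CPM in shG9a_1, 182, 166 and 180.4 CPM in shG9a_4, and 180.3, 181 and 189.9 CPM in shSCR, with 1 shG9a_1 library above the rest. UBTF, which opens ribosomal DNA for the polymerase, had a log2 fold change of −0.06 in shG9a_1 and of −0.06 in shG9a_4. RRN3, which recruits the polymerase to its promoter, had 176, 163 and 159.9 CPM in shG9a_1, 172, 173 and 146 CPM in shG9a_4, and 158, 167 and 157 CPM in shSCR. The RRN3 groups overlapped, and its log2 fold change was 0.05 in shG9a_1 and 0.03 in shG9a_4.

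The MPP10 complex, which holds the early small subunit precursor together, had all 3 members below 0 in both hairpin comparisons. IMP3 had 52.0, 47.9 and 47.4 CPM in shG9a_1, 52.8, 50.6 and 48.2 CPM in shG9a_4, and 54.9, 56.3 and 53.1 CPM in shSCR. The knockdown libraries of IMP3 did not overlap those of shSCR, with log2 fold changes of −0.16 (SE 0.07, edgeR adjusted p = 0.6439) in shG9a_1 and −0.12 (SE 0.07, adjusted p = 0.9999) in shG9a_4. IMP3 had the highest share of opposite-strand reads among the members, 4.68%. IMP4 had 92.8, 93.01 and 93.2 CPM in shG9a_1, 100.1, 79.7 and 94.2 CPM in shG9a_4, and 98.97, 105 and 98.5 CPM in shSCR. The lowest IMP4 value was in replicate 2 of shG9a_4, a library in which GC-rich members were low. The complex summed to 212 ± 5.86 CPM in shG9a_1, 214 ± 11.1 CPM in shG9a_4 and 231 ± 7.51 CPM in shSCR (SD, n = 3 each).

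UTP-A, which joins transcription of ribosomal RNA to its processing, had all 4 members below 0 for both hairpins, with medians of −0.08 in shG9a_1 and −0.05 in shG9a_4. HEATR1, its largest subunit, had 648, 567 and 644 CPM in shG9a_1, 639, 643 and 629 CPM in shG9a_4, and 654, 637 and 674 CPM in shSCR. UTP4 of UTP-A had 38.7, 33.2 and 34.4 CPM in shG9a_1, 36.03, 36.6 and 36.7 CPM in shG9a_4, and 35.2, 40.2 and 37.98 CPM in shSCR. The groups of both genes overlapped, and the lowest value of each was replicate 2 of shG9a_1. UTP-B, a scaffold of the processome, had 4 of 5 tested members below 0 with each hairpin, UTP18 being lowest in shG9a_1 at −0.14 (SE 0.08, edgeR adjusted p = 0.7305). TBL3 of UTP-B had 20.01, 28.5 and 26.4 CPM in shG9a_1, 27.4, 14.4 and 27.4 CPM in shG9a_4, and 26.5, 23.4 and 24.7 CPM in shSCR, so that 1 library of each hairpin was below shSCR and the others were within or slightly above it. The lowest TBL3 value was replicate 2 of shG9a_4.

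The other small subunit factors held the member with the lowest log2 fold change. DDX10, a DEAD-box RNA helicase, had 94.2, 83.9 and 82.9 CPM in shG9a_1, 101, 95.2 and 86.8 CPM in shG9a_4, and 103, 102 and 94.6 CPM in shSCR. All 3 shG9a_1 libraries were below all shSCR libraries, while shG9a_4 overlapped shSCR, and in each group replicate 3 was lowest. Its log2 fold change was −0.19 (SE 0.08, edgeR adjusted p = 0.629) in shG9a_1, −0.08 (SE 0.08, adjusted p = 0.9999) in shG9a_4, and −0.12 (SE 0.08, adjusted p = 0.9997) in shG9a_1 against shG9a_4. NOP14, a processome protein, had 162, 153 and 158 CPM in shG9a_1, 170.0, 166 and 165 CPM in shG9a_4, and 169.8, 176 and 169.7 CPM in shSCR. NOP14 was the only member whose shG9a_1 libraries all lay below all shG9a_4 libraries, in a comparison where 5.06% of all genes did so, with a log2 fold change of −0.08 (SE 0.05, edgeR adjusted p = 0.9997). TSR1, which acts late on the small subunit, had 317, 277 and 300.2 CPM in shG9a_1, 319, 318 and 299 CPM in shG9a_4, and 329, 327 and 332.7 CPM in shSCR, so its knockdown libraries were all below shSCR.

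RRP36, UTP20, NOL6, NOB1 and UTP14A had overlapping groups in every comparison with shSCR. UTP20, a large processome protein, had 186, 169.9 and 207 CPM in shG9a_1, 195, 203 and 196 CPM in shG9a_4, and 191, 195 and 211 CPM in shSCR. RRP36, which takes part in early cuts of the precursor, had 96.7, 88.6 and 96.9 CPM in shG9a_1, 98.1, 98.9 and 92.5 CPM in shG9a_4, and 88.7, 100.3 and 95.6 CPM in shSCR. Their log2 fold changes in shG9a_1 were −0.08 for UTP20 and −0.01 for RRP36. NOL6, a processome protein, had 135, 135 and 134 CPM in shG9a_1, 141, 118 and 133 CPM in shG9a_4, and 122, 149.6 and 131 CPM in shSCR. NOB1, the nuclease of the last small subunit cut, had 61.5, 60.7 and 56.2 CPM in shG9a_1, 66.7, 54.4 and 59.7 CPM in shG9a_4, and 65.4, 63.3 and 57.2 CPM in shSCR. In both genes the lowest value was replicate 2 of shG9a_4. UTP14A, a processome protein, had 94.3, 80.7 and 84.1 CPM in shG9a_1, 91.8, 91.8 and 79.99 CPM in shG9a_4, and 91.6, 93.03 and 83.9 CPM in shSCR, with replicate 3 low in shG9a_4 and shSCR. NAT10, the acetyltransferase of ribosomal RNA, had 140, 129 and 140.2 CPM in shG9a_1, 140.1, 141 and 141 CPM in shG9a_4, and 141, 146 and 146 CPM in shSCR. Its shG9a_1 libraries lay just below shSCR, with a log2 fold change of −0.08 (SE 0.06).

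Large subunit factors were below 0 in 8 of 11 cases in shG9a_1 and 10 of 11 in shG9a_4, with medians of −0.08 and −0.05. GRWD1, a chaperone of a ribosomal protein, lay on the high side. It had 71.4, 76.4 and 73.0 CPM in shG9a_1, 76.7, 66.1 and 74.3 CPM in shG9a_4, and 67.4, 71.0 and 70.5 CPM in shSCR. All shG9a_1 libraries were above all shSCR libraries, whereas 1 shG9a_4 library was below them, and the log2 fold changes were 0.08 (SE 0.07, edgeR adjusted p = 0.8472) and 0.06 (SE 0.07, adjusted p = 0.9999). NOL9, a kinase that acts on the cut precursor, had 151, 132 and 155 CPM in shG9a_1, 148, 143 and 145 CPM in shG9a_4, and 144, 142 and 151 CPM in shSCR. Its groups overlapped, with a log2 fold change of 0.01 in shG9a_1, and its sign in shG9a_1 turned when single libraries were left out. Of the 2 nucleolar proteins, LYAR had 129, 113 and 120.4 CPM in shG9a_1, 136, 125 and 120.2 CPM in shG9a_4, and 135, 139 and 137 CPM in shSCR. LYAR was below shSCR in all shG9a_1 libraries, with a log2 fold change of −0.18 (SE 0.07, edgeR adjusted p = 0.6278). DDX21 had 1106, 1006 and 1067 CPM in shG9a_1, 1119, 1114 and 1033 CPM in shG9a_4, and 1110, 1155 and 1104 CPM in shSCR, and its groups overlapped.

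**Figure D3:**
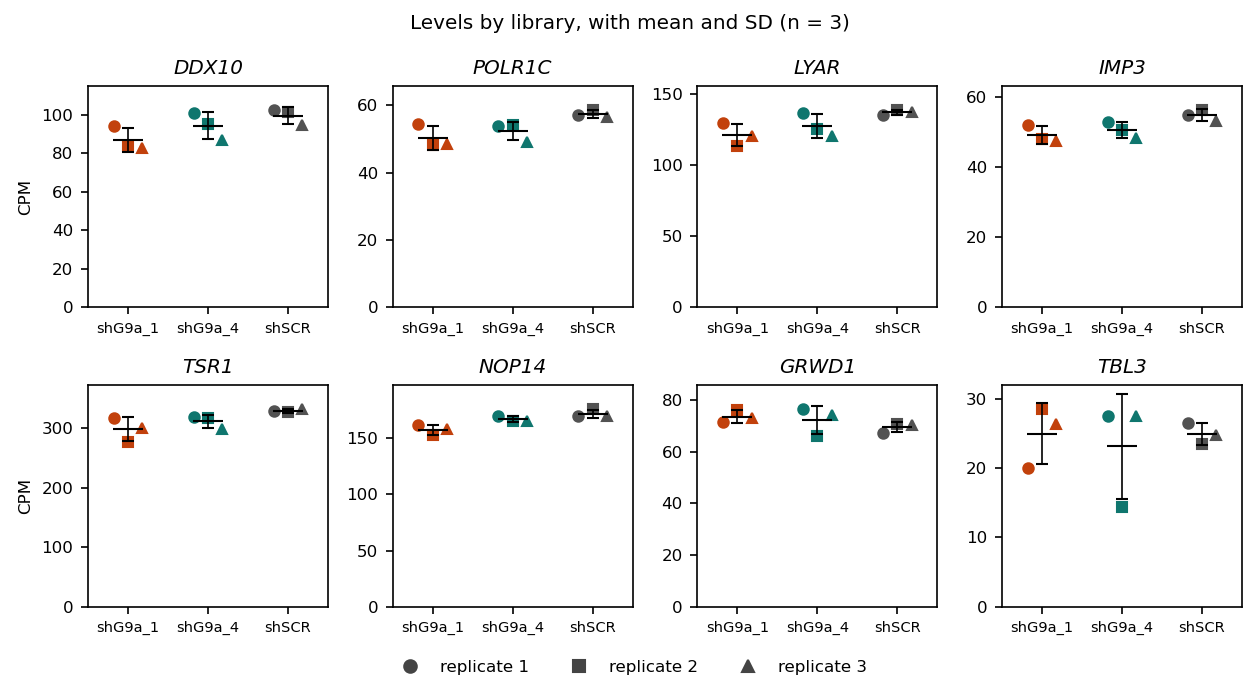
CPM of 8 members in each library of shG9a_1, shG9a_4 and shSCR, with replicate numbers as symbols and the mean and SD (n = 3) in black, on axes that start at 0. The spacing between groups is small against the level, as for DDX10 (82.9 to 94.2 CPM in shG9a_1 and 94.6 to 103 CPM in shSCR), and 1 library of shG9a_4 is low for TBL3 at 14.4 CPM.

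Counted over all members, 12 of 41 had every shG9a_1 library below every shSCR library, against 7.54% of all genes tested, and 1 had every shG9a_1 library above, against 7.15%. In shG9a_4 the count was 3 of 41 below, IMP3, POLR1C and TSR1, against 3.18% of all genes, and 0 above, against 3.25%. These 3 were also the members in which all 6 knockdown libraries lay below all shSCR libraries, against 1.30% of all genes. Since the members share their libraries, such counts move together and were given no test.

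Replicate 2 of shG9a_4 stood apart, and the difference followed base composition. The deviation of each library from the mean of the 9 was compared with the GC content of the transcript, as a description over the 41 members, which share that library's depth. Spearman's rho was −0.77 in replicate 2 of shG9a_4, −0.59 in replicate 1 of shG9a_1 and 0.63 in replicate 3 of shG9a_4, and between −0.11 and 0.16 in the 3 shSCR libraries. Over 18137 tested genes with a GC value it was −0.53, −0.28 and 0.32 in the same 3 knockdown libraries. In replicate 2 of shG9a_4 the 20 members of higher GC content (46.8 to 63.8%) had a median deviation of −0.03 and the 21 of lower GC content (37.3 to 46.3%) one of 0.05 on the log2 scale. RRS1, a large subunit factor with 56.3% GC, had 16.2 CPM there against 21.7 and 24.03 CPM in the other shG9a_4 libraries and 19.9 to 21.4 CPM in shSCR. The median log2 fold change in shG9a_1 was −0.08 for the members of lower and −0.07 for those of higher GC content, and in shG9a_4 it was −0.04 and −0.06.

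**Figure D4:**
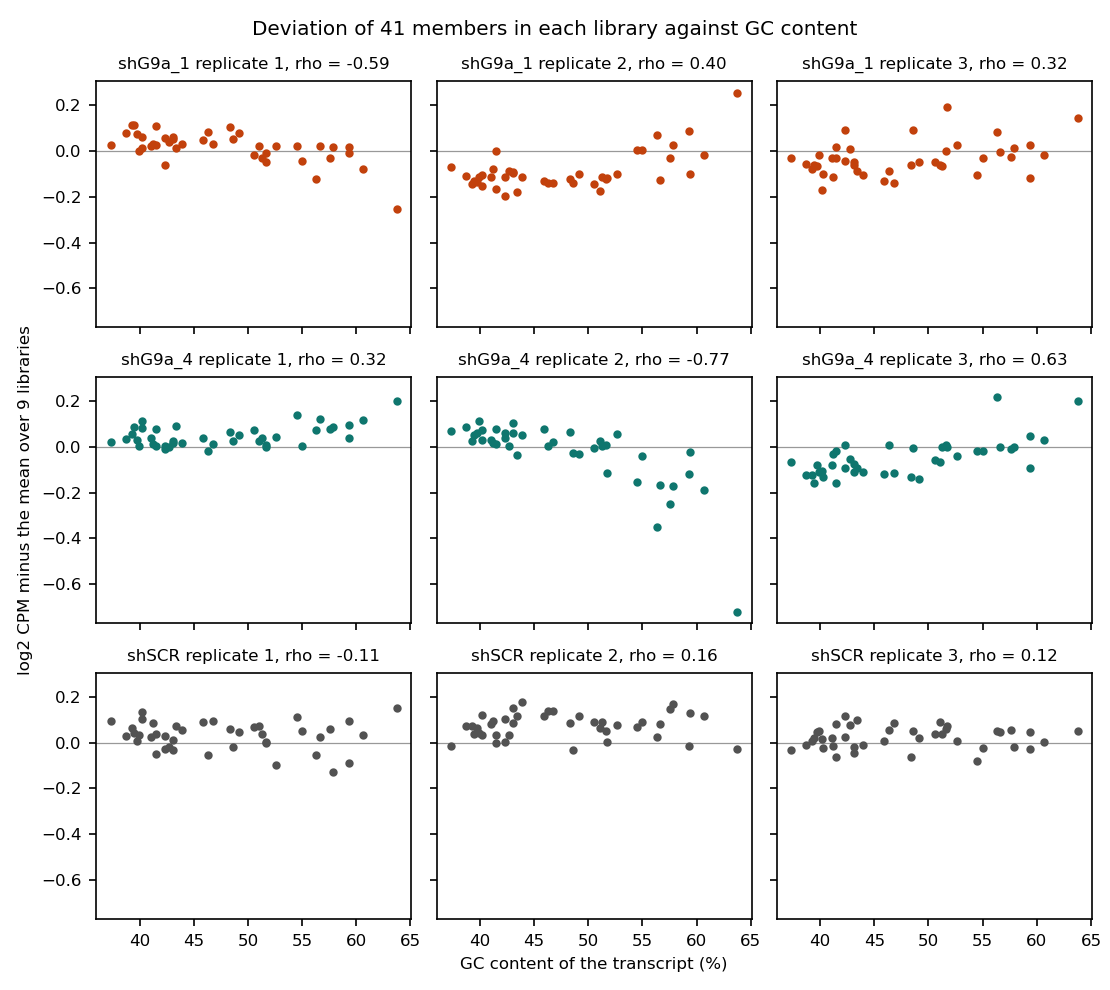
Deviation of the 41 members from their mean log2 CPM over 9 libraries, against the GC content of the transcript in percent, with a panel per library and Spearman's rho over the members. Replicate 2 of shG9a_4 slopes down (rho −0.77), with TBL3 as the lowest point, replicate 3 of shG9a_4 slopes up (rho 0.63), and the shSCR panels are nearly flat.

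Because of this slope, a fit with a trend on GC content as an offset and with the replicate number as a block was added after the data had been seen. It called 5.66% of 18137 genes in shG9a_1 (1026 genes), 0.298% in shG9a_4 (54), 2.14% for both hairpins (389) and 0.458% between the hairpins (83). Among the members, DDX10 (log2 fold change −0.20, SE 0.05, edgeR adjusted p = 0.0278) and POLR1C (−0.18, SE 0.04, adjusted p = 0.0421) fell in shG9a_1, that is 2 of 41 members beside 5.66% of all genes in either direction and 1.59% called lower. No member was called in the other 3 comparisons, where POLR1C had an adjusted p of 0.0675 and DDX10 of 0.0799 for both hairpins. At an unadjusted p under 0.05, 10 members were lower in shG9a_1, against 8.84% of all genes. Both calls depended on single libraries, while the fold changes moved little. Leaving out any library of shG9a_1, or replicate 2 or 3 of shSCR, left 0 members called, with log2 fold changes of −0.21 to −0.16 for DDX10 and of −0.20 to −0.15 for POLR1C, and without replicate 1 of shSCR there were 3, with LYAR added. Without replicate 1 or 3 of shG9a_4 DDX10 alone was called, and without replicate 2 of shG9a_4 both DDX10 and POLR1C were.

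**Figure D5:**
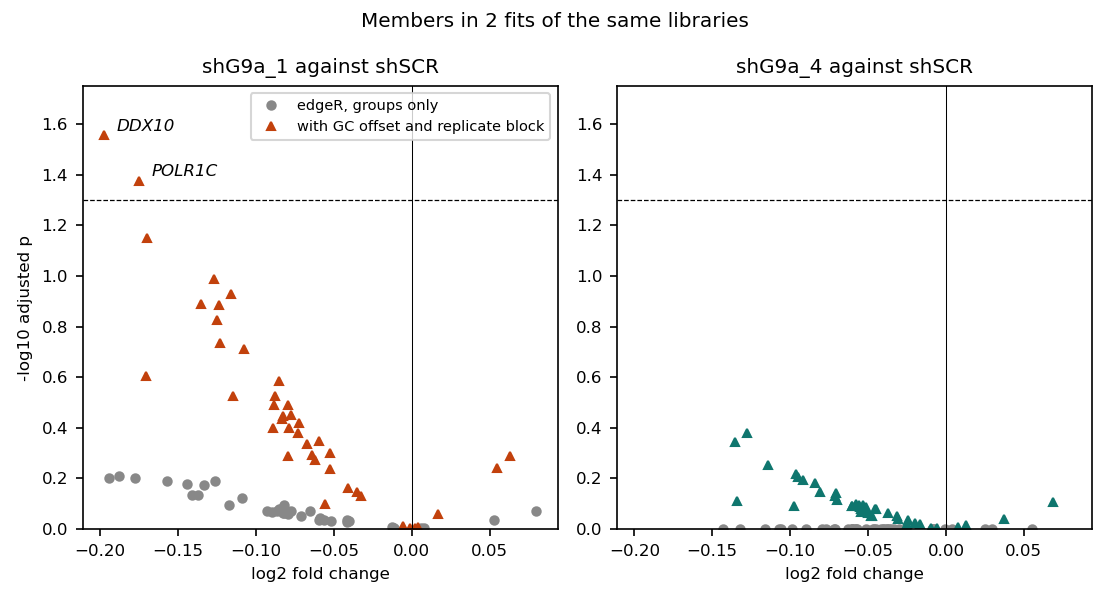
Log2 fold change against −log10 of the adjusted p for the 41 tested members in shG9a_1 (left) and shG9a_4 (right) against shSCR, in the fit of groups only (grey circles) and in the fit with GC offset and replicate block (coloured triangles). The dashed line is an adjusted p of 0.05, and only the triangles of DDX10 and POLR1C in shG9a_1 lie above it.

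For differences between the 3 replicate numbers 0 of 41 members were called by edgeR in the fit without a GC offset, against 7.47% of all genes tested, and 2 had an unadjusted p under 0.05, DDX10 (0.0321) and WDR12 (0.0473), against 23.2% of all genes. With a GC offset 1 of 41 members, NOB1, was called for the replicate number (edgeR adjusted p = 0.0301), beside 2817 of 18137 genes. WDR12, a large subunit factor, had 122, 108 and 109 CPM in shG9a_1, 123, 123 and 106 CPM in shG9a_4, and 125, 119 and 115 CPM in shSCR. Over the members, the group took up a median of 21.6% of the spread between libraries and the number 27.0%, against 18.8% and 33.9% over all genes tested. A factor of 3 levels takes up part of the spread even without any effect, so these shares alone show none.

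Other genes of the pathway, taken from lists beside the members, had small differences and no call against shSCR in the fit of groups only. Their calls in the fit with GC offset and replicate block were not counted. None of the 10 snoRNP proteins, 10 other RNA polymerase I genes, 29 other small subunit and 38 other large subunit factors, 8 abundant nucleolar proteins or 13 exosome genes tested was called by edgeR against shSCR with either hairpin. At an unadjusted p under 0.05 these lists held 1, 0, 0, 1, 3 and 2 genes in shG9a_1 in that order, beside 7.50% of all genes. The 3 were among the 8 abundant nucleolar proteins. In shG9a_4 they held 2 large subunit factors but no other gene, beside 2.38% of all genes. In shG9a_1 log2 fold changes were below 0 in 10 of 10 snoRNP proteins, 10 of 10 polymerase I genes, 23 of 29 small subunit and 31 of 38 large subunit factors. In shG9a_4 the counts were 10, 4, 22 and 33. Of all genes tested, 49.8% were below 0 in shG9a_1 and 49.2% in shG9a_4. For both hairpins FBL, the methyltransferase of ribosomal RNA, had −0.13 and DKC1, the pseudouridine synthase, −0.09, while MDN1, an ATPase of the large subunit path, had 0.20 and ABT1 0.19. Of 77 tested cytosolic ribosomal protein genes 61 were below 0 in shG9a_1 and 65 in shG9a_4, with medians of −0.04 and −0.05 and 0 called, and 12 of 15 and 11 of 15 proliferation genes were below 0, again with 0 called. MYC itself, counted without separating the endogenous gene from the construct, had 172, 175 and 198 CPM in shG9a_1, 186, 144 and 218 CPM in shG9a_4, and 186, 169 and 204 CPM in shSCR, with overlapping groups.

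Of the tested members, 37 could be matched by name in the authors' deposited tables, with UTP4 under its older symbol CIRH1A. A posterior probability of difference (PPDE) above 0.95 was given in the authors' deposited table for shG9a_1 to RRP1B, a nucleolar protein (PPDE 0.999, smoothed fold PostFC 0.904), and LYAR (PPDE 0.990, PostFC 0.877), that is 2 of 37 against 3.00% of all rows with a value. In the authors' deposited table for shG9a_4 it was TSR1 (PPDE 1, PostFC 0.932), 1 of 37 against 0.614%. The authors' deposited table for shG9a_1 gave TSR1 a PPDE of 0.831 and DDX10 0.865. Smoothed folds were below 1 in 35 of 37 members in the authors' deposited table for shG9a_1 and in 34 of 37 in that for shG9a_4, against 51.8% and 53.8% of all rows. POLR1C, BRIX1, DDX52 and UTP15 were not matched there.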

How the data were processed

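The authors deposited whole-number read counts per gene and library, per the file headers in the layout of the aligner STAR, with unstranded and stranded columns. Per the submitters' processing notes, whose entries carry no role or order, the builds GRCh37 and hg19 and the tools DESeq, R 3.3.1, edgeR 3.14.0 and STAR 2.5.2a are named. The reverse-strand counts were used, which held 94.7 to 95.1% of stranded reads. Reads that map to several places are not counted in this layout, so near-identical copies are uncertain. Classes that name no gene (no feature 12.2 to 15.4%, ambiguous 2.49 to 2.68%, multimapped 4.57 to 5.49% and unmapped 2.75 to 4.34%) were left out.

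Tests used R 4.3.3 with edgeR 4.0.16 (quasi-likelihood F-test, TMM scaling, filterByExpr, 18435 genes, 1 fit of 9 libraries, 6 residual degrees of freedom), two-sided, with Benjamini-Hochberg adjustment over all genes at 0.05. DESeq2 1.42.0 was an alternative. CPM were computed on TMM-scaled library sizes, and exon lengths and GC content came from GENCODE release 29. The fits, with and without GC offset and replicate block, were tested on simulated data. Promoter sequences are from RefSeq. The authors also deposited, per the file headers, scores of equal and different expression (PPEE, PPDE) and ratios (PostFC and RealFC, linear folds), and among matched genes past 0.5 on the log2 scale 258 of 262 and 148 of 156 had the direction hairpin over shSCR.

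Same-numbered libraries deviated together (correlations of 0.178 to 0.461 in all 9 pairs, mean 0.304), so the replicate numbers pair the libraries, as the data show, though no label ties them to a day. The fit of groups only leaves this pairing out, and its SE, intervals and adjusted p are those given unless the block is named. The members and lists were chosen with earlier results of these data known. All members could be named. Library values were given for those called, the 3 lowest and 3 highest log2 fold changes of each comparison, the 3 highest and lowest levels and some others chosen after their values were seen. With 3 libraries per group, the edgeR p-values set a group difference against the spread between replicates, an estimate that also draws on the other genes.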

Additional observations from a re-analysis of the deposited data

How the results depend on the processing

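No member was called under DESeq2, the likelihood ratio test, other scalings, no filter, unstranded counts, 6-library fits, the replicate block or a GC offset alone in any hairpin comparison. With the GC offset and the replicate block 2 members were called in shG9a_1, beside 1026 of all genes. When single libraries were left out, 0 to 3 members were called, beside 158 to 1095 of all genes. With the GC offset 1 of 41 members, NOB1, was called for the replicate number (edgeR adjusted p = 0.0301), beside 2817 of 18137 genes. The members' median kept its sign under every alternative. Without replicate 2 of shG9a_1 it was −0.0060 in shG9a_1 against shG9a_4, beside −0.0058 over all genes, with 23 of 41 members below 0.

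Signs of members near 0 turned. With library size alone NOL9 had −0.0144 in shG9a_1 and RRP36 −0.0094 for both hairpins. Leaving out single libraries gave NOL9 −0.0383 to 0.0778 in shG9a_1, RRN3 in shG9a_4 −0.0151 to 0.11, RRP36 in shG9a_4 −0.0207 to 0.0617 and for both hairpins −0.0395 to 0.0455, and, in shG9a_1 against shG9a_4, NOL6 −0.0166 to 0.10, POLR1A −0.0486 to 0.11 and TBL3 −0.13 to 0.26. The cause was not tested.

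Counts of all genes called moved more. Against 7, 5, 9, 0 and 1377 genes (shG9a_1, shG9a_4, both hairpins, between hairpins, replicate number), no filter gave 288, 49, 126, 106 and 2874 and the likelihood ratio test 42, 17, 22, 5 and 2328. DESeq2 gave 79, 22, 44 and 6 in the hairpin comparisons, the replicate block 143, 14, 34 and 0, the GC offset 20, 12, 17, 1 and 2817, and the GC offset with replicate block 1026, 54, 389 and 83. In shG9a_4 unstranded counts gave 1 and the 6-library fit 0. Leaving out single libraries gave 0 to 10, 0 to 7, 0 to 11, 0 and 435 to 2109. With 3 libraries per group, the 0.874-fold of DDX10 in shG9a_1 was not separated from no difference by the groups-only fit (edgeR adjusted p = 0.629).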

Other observations

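The members varied together over the 9 libraries. Across the 820 pairs of tested members, the correlation of log2 CPM over the 9 libraries had a median of 0.50 and was positive in 657 pairs. It had a median of 0.73 among the 21 members of lower GC content, 0.37 among the 20 of higher GC content, and 0.35 between members of lower and of higher GC content. The points share their libraries and their base composition, so this describes these libraries only. The share of reads on the opposite strand exceeded 2% on average in 5 members, IMP3 (4.68%), HEATR1 (4.23%), POLR1C (3.76%), BRIX1 (2.28%) and NOP14 (2.16%). In GENCODE release 29, 23 members overlap exons of a gene on the other strand and 4 those of a gene on the same strand.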
